A study of Mus musculus with 16 samples.

Results

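The NRF2 antioxidant response genes were followed here as 10 genes chosen by symbol, and each symbol had 1 row among the 32989 genes of the liver and kidney tables. They comprise Nfe2l2, which encodes NRF2, its inhibitor Keap1, and the effectors Nqo1, Hmox1, Gclc, Gclm, Txnrd1, Srxn1, Slc7a11 and Osgin1. RNA was measured in male C57BL/6J mice aged 97 weeks after 85 weeks either in a fixed light–dark cycle (LD; L63, L65, L86 and L104) or in a cycle advanced by 8 h once every 4 days (ADV; A75, A91, A94 and A115), a model of chronic jet lag in wild-type animals. Liver and kidney of the same 8 mice gave 16 libraries, 4 in each group of organ and condition. Every mouse gave 1 library for each organ, so that the p-values below measure the spread between these mice.

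NRF2 is a transcription factor that KEAP1 holds in the cytoplasm and hands to a CUL3 ubiquitin ligase for degradation. When cysteines of KEAP1 are modified by oxidants or electrophiles, NRF2 accumulates, enters the nucleus and binds antioxidant response elements together with small MAF proteins. Much of its regulation is at the level of the protein, so that transcripts of its targets are the usual readout of its activity. In the liver and kidney the pathway is known for glutathione synthesis, quinone and peroxide reduction and the handling of drugs and heme.

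The libraries held between 21092501 and 24285055 fragments on genes in liver and between 15688495 and 18043306 in kidney, and 1 fragment in a transcript of 1 kb amounted to between 0.0380 and 0.0584 FPKM (fragments per kilobase of exon and 1000000 fragments of the library). The kidney of A115 stood apart, with 33.8% of its fragments from mitochondrial genes against between 9.43% and 18.0% in the other kidneys, and a mean correlation with the other kidneys of 0.858 against between 0.932 and 0.964. The liver of A94 had a mean correlation of 0.941 with the other livers, against between 0.977 and 0.982. Counts of genes called between ADV and LD in kidney are therefore given with and without A115. The 8 hepatocyte markers summed to between 58227 and 71716 FPKM in the livers, whereas the 7 proximal tubule markers summed to at most 0.119 FPKM there, with Slc34a1, Slc22a6 and Kap at 0 in every liver, and to between 18490 and 46293 FPKM in the kidneys. The hepatocyte markers summed to between 899 and 1261 FPKM in the kidneys, mostly from Cyp2e1, which had between 683 and 1057 FPKM, with Cps1 at 0 in every kidney. In whole organs, fewer cells of a type and less RNA per cell cannot be told apart. The study used 2 sequencing services and does not assign libraries to them, and a sequencing batch and the light condition cannot be told apart.

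The core of the antioxidant response element, TGACNNNGC, was searched on both strands in windows of 300 bases around annotated starts (RefSeq, GRCm38.p6, 250 bases before to 50 after the start), because these letters are what the members' promoters may share. It occurred in 12.4% of all 32851 windows. Of the members, 8 had 10 windows, and 4 windows of 4 genes held a match. Those windows are shown with the match in capitals, 90 bases for the matches upstream of a start and 29 for the match in Srxn1, read along the strand of the gene.
Nfe2l2, minus strand of chr2:75704824-75704913, match 240 bases before the start, on the strand of the gene: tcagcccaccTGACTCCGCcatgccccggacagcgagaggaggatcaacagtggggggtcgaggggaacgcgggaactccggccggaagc
Gclm, plus strand of chr3:122245383-122245472, match 134 bases before the start, on the opposite strand: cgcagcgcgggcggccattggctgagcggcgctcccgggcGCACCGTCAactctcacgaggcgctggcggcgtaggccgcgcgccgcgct
Txnrd1, plus strand of chr10:82859074-82859163, match 92 bases before the second of 3 annotated starts, on the opposite strand: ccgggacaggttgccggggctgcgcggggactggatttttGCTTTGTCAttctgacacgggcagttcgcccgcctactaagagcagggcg
Srxn1, plus strand of chr2:152105542-152105570, match 28 bases after the start, on the opposite strand: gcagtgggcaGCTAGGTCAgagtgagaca
The single windows of Keap1, Nqo1, Slc7a11 and Osgin1, and the other two windows of Txnrd1, did not hold these letters, and Hmox1 and Gclc had no entry. The first start of Txnrd1 is that of the gene in the tables. A match is a string of letters and was not tied to binding by any measurement here.

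In mm10 the genes lie at 2:75675513-75704663 (Nfe2l2, minus strand), 9:21229730-21239332 (Keap1, minus), 8:107388225-107403205 (Nqo1, minus), 8:75093618-75100593 (Hmox1, plus), 9:77754535-77794489 (Gclc, plus), 3:122245557-122267215 (Gclm, plus), 10:82833951-82897724 (Txnrd1, plus), 2:152105524-152111376 (Srxn1, plus), 3:50364936-50443613 (Slc7a11, minus) and 8:119437162-119446256 (Osgin1, plus), written as chromosome, start and end, and values sum over their exons. Keap1 overlaps an antisense transcript, AK154190, and Txnrd1 overlaps Eid3, both of which stayed below 0.05 FPKM in the mean of either organ.

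Among the levels in the LD-conditioned kidneys, Gclm, the modifier subunit of glutamate-cysteine ligase, was highest with 142 ± 11.5 FPKM (SD, n = 4), followed by Gclc, the catalytic subunit, with 84.3 ± 2.83 FPKM. Nfe2l2 came next at 56.0 ± 11.0 FPKM and overlapped with Txnrd1, the cytosolic thioredoxin reductase, at 47.3 ± 2.13 FPKM. Nqo1, a quinone reductase, at 37.1 ± 2.53 FPKM overlapped with Osgin1, an oxidative stress-induced growth inhibitor, at 32.7 ± 6.66 FPKM. Hmox1, the inducible heme oxygenase, and Srxn1, which reduces overoxidised peroxiredoxins, could not be told apart at 20.9 ± 3.27 and 20.5 ± 2.13 FPKM, and Keap1 lay below them at 8.57 ± 0.764 FPKM. In the LD-conditioned livers the order differed: Gclm (55.9 ± 4.28 FPKM), Gclc (49.8 ± 10.9 FPKM) and Osgin1 (48.9 ± 8.91 FPKM) overlapped at the top, followed by Txnrd1 (26.6 ± 4.08 FPKM) and Nfe2l2 (19.2 ± 0.919 FPKM). Hmox1 (10.9 ± 1.93 FPKM) and Keap1 (10.9 ± 0.916 FPKM) overlapped, Srxn1 (8.41 ± 0.572 FPKM) overlapped with Hmox1 but not with Keap1, and Nqo1 was lowest of these 9 at 4.43 ± 1.16 FPKM. Slc7a11, the cystine and glutamate exchanger, was barely detected in either organ, with between 0 and 2 fragments in an LD-conditioned liver and between 4 and 6 in an LD-conditioned kidney.

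**Figure D1:**
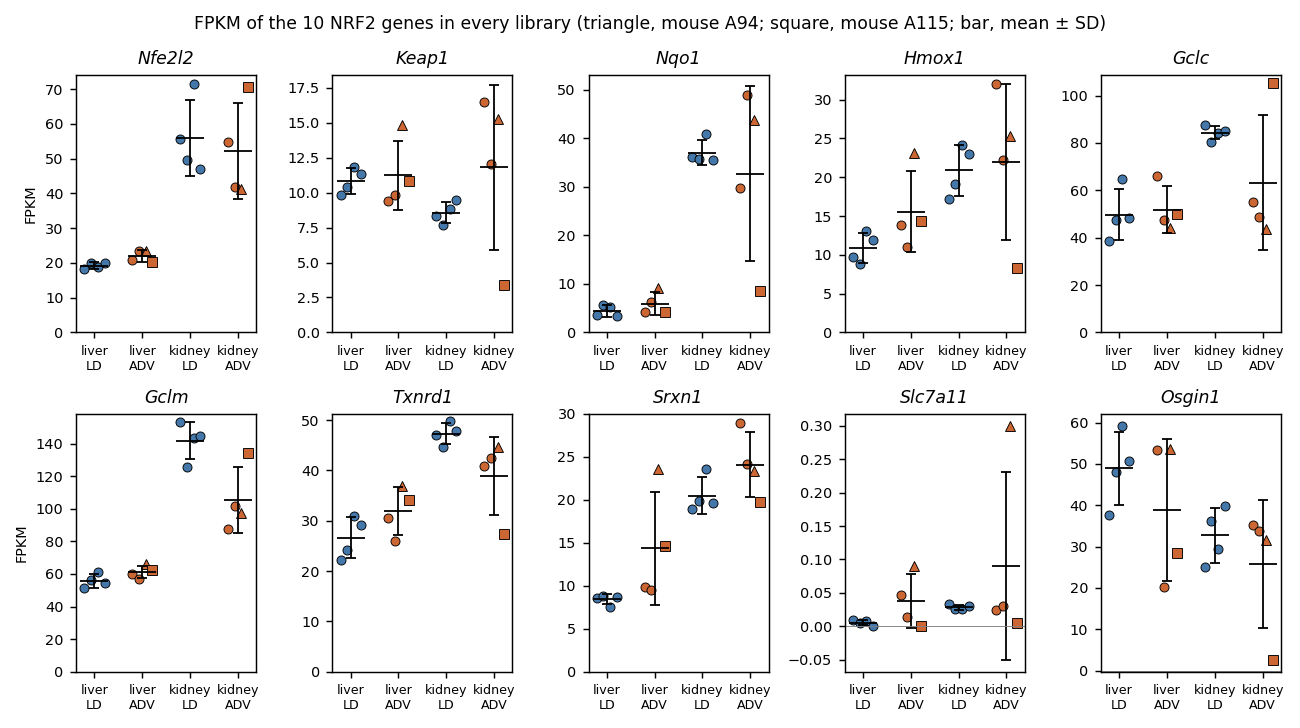
FPKM of each of the 10 genes in every library by organ and condition; points are libraries, triangles mouse A94, squares mouse A115, and bars the mean ± SD of 4 libraries. Nqo1 lies between 3.34 and 9.09 FPKM in liver and between 8.51 and 48.9 in kidney, and the square of A115 lies apart from the other ADV kidneys in Keap1, Nqo1, Hmox1, Gclc and Osgin1.

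The first comparison asked whether the members differed between ADV- and LD-conditioned livers. By limma on log2(FPKM + 0.1), 0 of the 9 members above the minimum level had an adjusted p under 0.05, where 0.00779% of all genes tested did (1 of 12835), and limma-voom called 0 members as well. At an unadjusted p under 0.05 there was 1 member, Srxn1, against 11.8% of all genes. The median log2 fold change of the members was 0.19, beside 0.10 for all genes tested, and after scaling by the median ratio these were 0.10 and 0.01. The log2 fold change was positive in 8 of the 9 members as deposited and in 6 after the scaling, where 65.7% and 51.5% of all genes were positive. In 2 members the 4 ADV livers lay above every LD liver and in 0 below, where 6.94% of all genes lay above and 1.89% below.

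Srxn1 was one of these. Its levels were 8.56, 8.85, 7.57 and 8.67 FPKM in the livers of L63, L65, L86 and L104, and 9.81, 9.46, 23.6 and 14.6 FPKM in those of A75, A91, A94 and A115. The groups did not overlap, and A94 was highest. The log2 fold change was 0.67 (SE 0.26, a 1.59-fold higher level, adjusted p = 0.385 by limma and p = 0.029 in a two-sided exact permutation test, the smallest that 4 against 4 allows), and 0.39 (SE 0.15) without A94.

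Nfe2l2 was the other. It measured 18.1, 19.9, 18.9 and 20.1 FPKM in the LD livers and 20.9, 23.4, 23.6 and 20.2 FPKM in the ADV livers, so that the lowest ADV liver lay just above the highest LD liver. The log2 fold change was 0.19 (SE 0.09, adjusted p = 0.440 by limma and p = 0.029 in an exact permutation test), and 0.10 after scaling by the median ratio. Keap1 measured between 9.82 and 11.9 FPKM under LD and between 9.39 and 14.8 FPKM under ADV in liver, a log2 fold change of 0.03 that turned to −0.06 after that scaling.

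A94 had the highest level of the 8 livers in 7 of the 9 members above the minimum. Hmox1 measured 9.77, 8.82, 13.03 and 11.9 FPKM in the LD livers and 13.8, 10.9, 23.1 and 14.3 FPKM in the ADV livers, a log2 fold change of 0.47 (SE 0.22, adjusted p = 0.438 by limma) and 0.26 without A94. Nqo1 measured 3.52, 5.58, 5.28 and 3.34 FPKM against 4.14, 6.29, 9.09 and 4.29 FPKM, and its log2 fold change of 0.38 (SE 0.27) became 0.16 without A94. In the liver of A94 the 12 macrophage markers summed to 1027 FPKM, where the LD livers had between 233 and 336 and the other ADV livers between 329 and 412, and all 12 were higher in the mean of the ADV livers. The 9 lymphocyte markers summed to 74.1 FPKM in A94 and to between 2.63 and 5.83 in the other livers. The 5 cholangiocyte markers summed to 247 FPKM in A94 and to between 20.0 and 53.5 in the others. For the 6 endothelial markers the sum was 52.6 FPKM against between 30.7 and 43.9. For the 4 of 5 erythroid markers that had a row it was 429 FPKM against between 213 and 299.7. The part of these cells in the values of A94 was not tested.

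For glutathione synthesis, Gclm measured 51.2, 56.2, 61.5 and 54.6 FPKM in the LD livers and 59.8, 56.9, 65.9 and 62.7 FPKM in the ADV livers, a log2 fold change of 0.13 (95% interval −0.07 to 0.34). The log2 fold change of Gclc was 0.07 (−0.33 to 0.46), with 38.6, 47.3, 64.8 and 48.4 FPKM against 66.1, 47.4, 43.9 and 50.1 FPKM. Both intervals include 0. Slc7a11, which brings in cystine for glutathione, was below the minimum in liver, with 10, 3, 19 and 0 fragments in A75, A91, A94 and A115. It was left out of the main limma fit, and an exact permutation test gave p = 0.171. Txnrd1 measured between 22.2 and 30.9 FPKM under LD and between 25.9 and 37.0 FPKM under ADV (log2 fold change 0.26, SE 0.14). Osgin1 spread widely among the ADV livers, with 53.3, 20.3, 53.7 and 28.4 FPKM in A75, A91, A94 and A115, where the LD livers had between 37.6 and 59.3 FPKM (log2 fold change −0.43, SE 0.31).

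**Figure D2:**
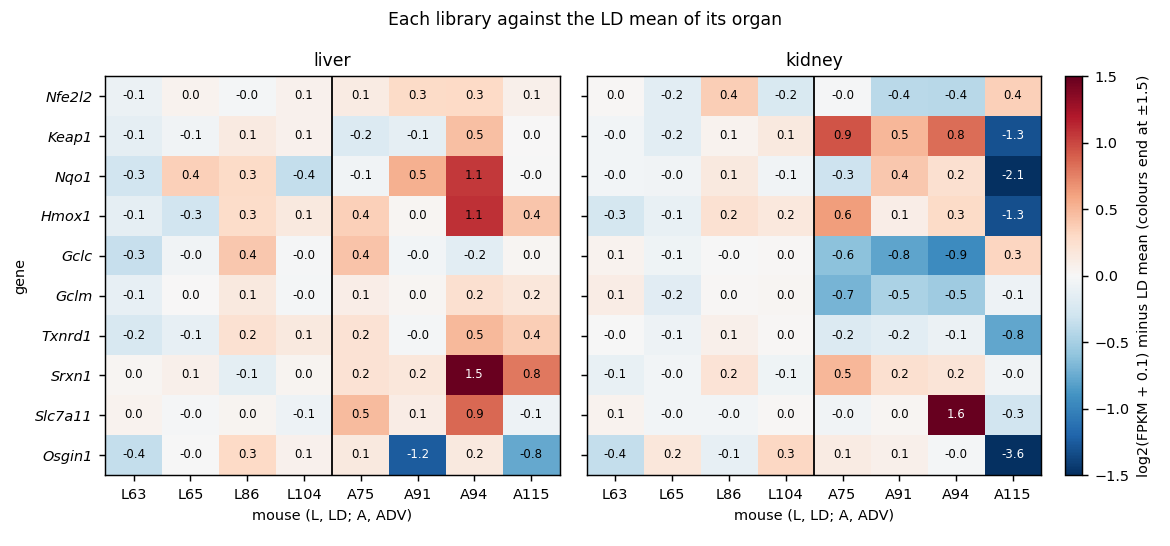
Log2(FPKM + 0.1) of every library minus the LD mean of its organ, with genes in rows and mice in columns, liver left and kidney right; the number in a cell is that difference. In liver A94 is high in most rows; in kidney A75, A91 and A94 are low in Gclc and Gclm and high in Keap1, whereas A115 is low in Keap1, Nqo1, Hmox1 and Osgin1.

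The same comparison in kidney gave 0 of 10 members called, where 0% of 14452 genes were called, by limma and by limma-voom alike. At an unadjusted p under 0.05 there was 1 member, Gclm, against 3.10% of all genes. In 1 member, Txnrd1, the 4 ADV kidneys lay below every LD kidney and in 0 above, where 1.83% of all genes lay below and 0.962% above. Without A115 there were 3 members called. Keap1 was higher in the ADV kidneys, where 16.1% of all genes were called higher, and Gclc and Gclm were lower, where 2.68% were called lower. In this fit all genes tested had a median log2 fold change of 0.20 and the members one of 0.08. After scaling by the median ratio as well, which brought the median of all genes to 0.02 and that of the members to −0.11, the same 3 were called in the same directions together with Txnrd1, which was lower, where 8.31% of all genes were called higher and 7.70% lower.

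Gclc, the catalytic subunit of the rate-limiting enzyme of glutathione synthesis, measured 87.4, 80.6, 84.1 and 85.1 FPKM in the kidneys of L63, L65, L86 and L104 and 54.9, 48.8, 43.7 and 105 FPKM in those of A75, A91, A94 and A115. The kidneys of A75, A91 and A94 lay far below the narrow range of the LD kidneys, and A115 lay above it. With all mice the log2 fold change was −0.51 (SE 0.27, adjusted p = 1.0 by limma). Without A115 it was −0.78 (SE 0.10, a 1.72-fold lower level, adjusted p = 0.0107 by limma and p = 0.029 in an exact permutation test, the smallest that 3 against 4 allows), and −0.97 with the scaling as well.

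Gclm showed the same order of conditions. Its levels were 153, 126, 143 and 145 FPKM in the LD kidneys and 87.5, 102, 97.7 and 134 FPKM in the ADV kidneys, where A115 was again highest and lay within the LD range. The log2 fold change was −0.44 with all mice (SE 0.17, adjusted p = 1.0 by limma and p = 0.057 in an exact permutation test). Without A115 it was −0.57 (SE 0.10, a 1.48-fold lower level, adjusted p = 0.0132 by limma), and −0.76 with the scaling.

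Keap1 went the other way. It measured 8.30, 7.66, 8.85 and 9.45 FPKM in the LD kidneys and 16.5, 12.1, 15.3 and 3.39 FPKM in the ADV kidneys, so that 3 ADV kidneys lay above every LD kidney and A115 below. With all mice the log2 fold change was 0.24 (SE 0.47, adjusted p = 1.0 by limma). Without A115 it was 0.76 (SE 0.13, a 1.69-fold higher level, adjusted p = 0.0132 by limma and p = 0.029 in an exact permutation test), and 0.57 with the scaling.

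Without A115, Keap1 lay above every LD kidney, and Gclc, Gclm and Txnrd1 lay below, that is 1 of 10 members above and 3 below, where 24.8% of all genes lay above and 8.06% below. Txnrd1 measured 47.0, 44.7, 49.8 and 47.7 FPKM in the LD kidneys and 40.9, 42.4, 44.6 and 27.4 FPKM in the ADV kidneys, and A94 came within 0.1 FPKM of the lowest LD kidney. Its log2 fold change was −0.31 with all mice (SE 0.18, adjusted p = 1.0 by limma and p = 0.029 in an exact permutation test) and −0.15 without A115 (adjusted p = 0.201 by limma). With the scaling as well it was −0.34 (adjusted p = 0.0372 by limma).

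Nfe2l2 itself measured 55.8, 49.6, 71.5 and 47.2 FPKM in the LD kidneys and 54.7, 41.8, 41.4 and 70.6 FPKM in the ADV kidneys. The groups overlapped, with or without A115, and the log2 fold change was −0.12 (SE 0.22) with all mice and −0.28 (SE 0.16, adjusted p = 0.246 by limma) without A115. Srxn1 measured 18.9, 19.9, 23.6 and 19.6 FPKM against 28.9, 24.2, 23.4 and 19.8 FPKM, a log2 fold change of 0.22 (SE 0.16) with all mice and 0.31 (SE 0.11, adjusted p = 0.0885 by limma) without A115.

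In the remaining members A115 stood apart. Nqo1 measured between 35.5 and 40.8 FPKM in the LD kidneys and 29.9, 48.9 and 43.7 FPKM in A75, A91 and A94, against 8.51 FPKM in A115. Osgin1 was at 2.56 FPKM in A115 and between 25.1 and 39.9 FPKM in the other 7 kidneys. Hmox1 was at 8.24 FPKM in A115 and between 17.2 and 32.0 FPKM in the others. Their log2 fold changes turned from −0.44 to 0.11 for Nqo1, from −0.86 to 0.06 for Osgin1 and from −0.08 to 0.34 for Hmox1 when A115 was left out, with no adjusted p under 0.05 in either fit by limma. With the scaling as well they were −0.08, −0.13 and 0.15. Slc7a11 reached 54.5 fragments in A94 (0.30 FPKM) and between 1 and 6 fragments in the other kidneys, and it passed the minimum only through A94, where the macrophage markers summed to 695 FPKM against between 75.4 and 328 in the other kidneys. Their part in this value was not tested.

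Markers of cell types differed among the same kidneys. The 7 proximal tubule markers summed to between 27495 and 40518 FPKM in the LD kidneys, to 18490, 30342 and 21419 FPKM in A75, A91 and A94, and to 46293 FPKM in A115. The 7 distal nephron and collecting duct markers summed to between 1895 and 2425 FPKM in the LD kidneys, to 3043, 2303 and 2309 FPKM in A75, A91 and A94, and to 1258 FPKM in A115. The proximal tubule sum was below the LD range in A75 and A94, within it in A91 and above it in A115, and the distal sum was above it in A75, within it in A91 and A94 and below it in A115. Among other cell types, the 9 lymphocyte markers summed to 84.0 FPKM in A94 and to between 4.66 and 12.0 in the other kidneys. The 4 of 5 erythroid markers that had a row summed to 633 FPKM in A75 and 835 in A94, where the LD kidneys had between 156 and 352. The 5 cholangiocyte markers, some of which renal epithelium also expresses, summed to 6820 FPKM in A75 and 8235 in A115, where the LD kidneys had between 687 and 2793 and A91 and A94 had 664 and 917. Mitochondrial genes took between 15.7% and 18.0% of fragments in the LD kidneys and 10.7%, 13.1% and 9.43% in A75, A91 and A94. The part of the makeup of the kidney and of the mitochondrial share in the values of Gclc, Gclm and Keap1 was not tested.

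**Figure D3:**
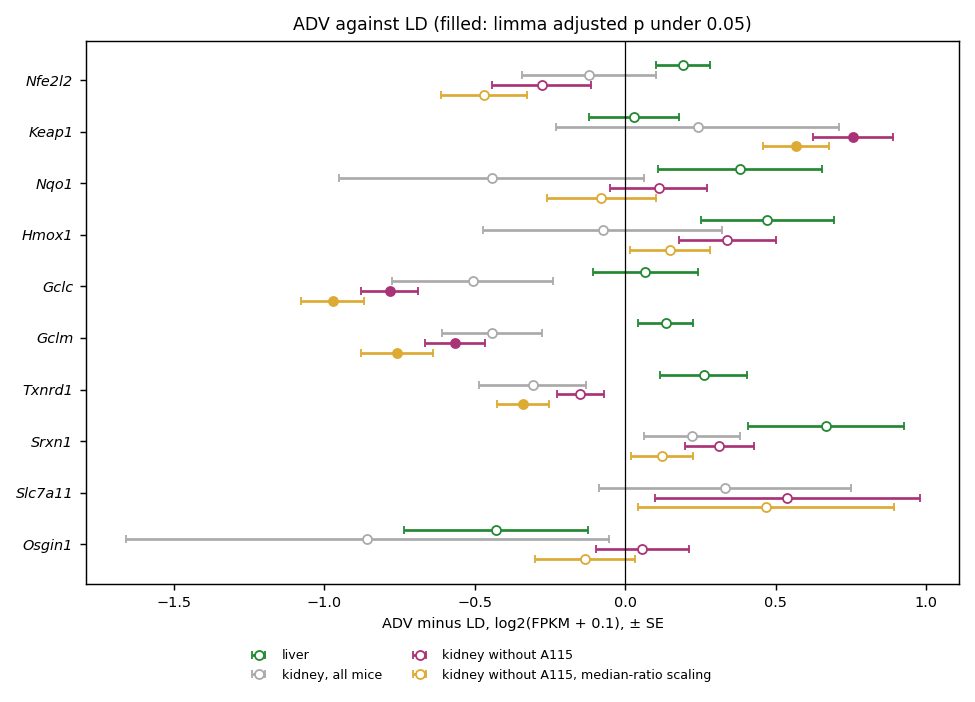
Log2 fold change of each gene, ADV minus LD, with its standard error, in liver, in kidney with all mice, and in kidney without A115 as deposited and after scaling by the median ratio; filled points have an adjusted p under 0.05 by limma. Gclc and Gclm lie left of 0 and Keap1 right of 0 in all 3 kidney fits, filled only in those without A115, and no liver point is filled.

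Ratios of a pair of members within a library do not depend on its total. These ratios were chosen after the values had been seen and are given as a description. The ratio of Nfe2l2 to Keap1 was 6.72, 6.47, 8.08 and 4.99 in the kidneys of L63, L65, L86 and L104, 3.31, 3.46 and 2.70 in those of A75, A91 and A94, and 20.9 in A115. In liver it lay between 1.59 and 1.91 in the LD mice and between 1.59 and 2.38 in the ADV mice. The ratio of Gclc to Gclm lay between 0.571 and 0.640 in the LD kidneys, was 0.628, 0.480 and 0.447 in A75, A91 and A94 and 0.783 in A115, and in liver it lay between 0.752 and 1.05 under LD and was 1.104, 0.832, 0.667 and 0.799 in A75, A91, A94 and A115. Gclc took 18.8 ± 0.793% (SD, n = 4) of the summed FPKM of the 10 members in the LD kidneys and 13.1 ± 1.27% (n = 3) in the ADV kidneys without A115. The share of Keap1 was 1.91 ± 0.123% and 3.91 ± 0.609% in the same kidneys. With A115 included (n = 4) the ADV shares were 16.8 ± 7.37% for Gclc, up to 27.7%, and 3.15 ± 1.59% for Keap1, down to 0.891%.

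Whether the difference between the conditions was itself different in the organs was tested as an interaction in 1 fit of the 16 libraries. It gave 0 of 10 members called, where 0% of 14968 genes were called, and 2 members, Gclm and Txnrd1, had an unadjusted p under 0.05, against 3.71% of all genes (556). For Gclm the difference, liver minus kidney, was 0.58 on the log2 scale (SE 0.19, adjusted p = 1.0 by limma and p = 0.029 in an exact permutation test over the differences of the 8 mice). Every ADV library of Gclm lay above the LD mean in liver and below it in kidney. Without A115 it was 0.69 (SE 0.14, adjusted p = 0.0275 by limma), the 1 member called where 2.74% of all genes were. With the scaling as well, Gclm (0.77) and Keap1 (−0.63) were called, where 2.78% of all genes were. For Gclc the difference without A115 was 0.86 (SE 0.23, adjusted p = 0.0663 by limma).

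Levels in liver and kidney were then compared, in libraries that had each been divided by their own total only. In the LD mice 7 of 10 members were called lower in liver and 0 higher, where 55.5% of all genes were called lower and 11.1% higher, with a median of all genes of −0.80 on the log2 scale. In the ADV mice 4 members were lower, where 51.7% of all genes were lower and 11.2% higher, with a median of −0.69. Without A115, 6 members were lower in the ADV mice, where 66.9% of all genes were lower and 11.3% higher. Scaling by the median ratio, which brought these medians to −0.05 and −0.01, gave 3 members lower (Nfe2l2, Nqo1 and Srxn1) and 2 higher (Keap1 and Osgin1) in the LD mice, where 30.2% of all genes were lower and 24.7% higher. In the ADV mice it gave 1 lower (Nqo1) and 3 higher (Keap1, Txnrd1 and Osgin1), where 27.5% were lower and 24.3% higher. The sign of Gclc, Hmox1 and Txnrd1 in the ADV mice and that of Gclc in the LD mice thus depended on the scaling.

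Nqo1 was called lower in liver in both conditions under every alternative. It measured between 3.34 and 9.09 FPKM in the livers and between 29.9 and 48.9 FPKM in the kidneys other than that of A115, which had 8.51 FPKM. The log2 difference was −3.07 in the LD mice (SE 0.43, 8.40-fold lower, adjusted p = 1.58e-05 by limma) and −2.25 in the ADV mice (SE 0.43, 4.74-fold lower, adjusted p = 0.000342). After scaling by the median ratio it was −2.27 and −1.52. Within each of the 8 mice the liver was lower as deposited, with log2 differences between −3.37 in L104 and −0.97 in A115 (exact sign-flip permutation test, two-sided p = 0.0078, the smallest that 8 mice allow).

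As deposited, Nfe2l2 was lower in liver in 8 of 8 mice, and so was Gclm (exact sign-flip permutation p = 0.0078 each). The median of all genes was −0.80 in the LD mice and −0.69 in the ADV mice. The sign-flip tests did not remove this offset, and the share of all genes lower in every mouse is not given here. The log2 difference of Nfe2l2 was −1.52 (SE 0.17) in the LD mice and −1.21 (SE 0.17) in the ADV mice, and after the scaling −0.71 (adjusted p = 0.0229 by limma) and −0.47 (adjusted p = 0.119). Gclm differed by −1.34 (SE 0.13) and −0.76 (SE 0.13), and after the scaling by −0.53 (adjusted p = 0.0527) and −0.03. Srxn1 differed by −1.27 (SE 0.23) in the LD mice and −0.83 (SE 0.23) in the ADV mice, and after the scaling by −0.46 (adjusted p = 0.0427 by limma) and −0.10. In the LD mice Keap1 (0.34, SE 0.36) and Osgin1 (0.58, SE 0.65) had a positive difference without an adjusted p under 0.05 as deposited, and both were called higher in liver after the scaling. The standard errors between organs use 1 spread shared by the 4 groups. The kidney of A115 thus enters those of the LD mice. Within the LD mice the differences of Keap1 lay between 0.240 and 0.435. Without A115, 1 member was called higher in liver in the LD mice, where 2129 of 14975 genes were.

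**Figure D4:**
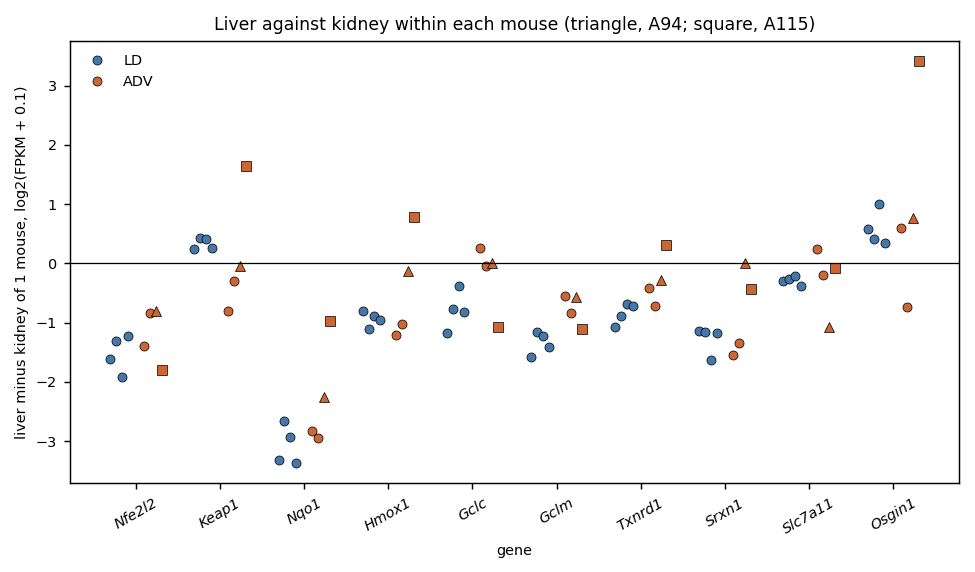
Log2(FPKM + 0.1) of the liver minus that of the kidney of the same mouse for each gene; blue points are LD mice, orange points ADV mice, triangles A94 and squares A115. All 8 mice lie below 0 for Nfe2l2, Nqo1 and Gclm, and A115 lies above the other mice for Keap1, Nqo1, Hmox1, Txnrd1 and Osgin1.

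Around the members, 95 other genes of the pathway in 8 lists were counted in the same fits. In liver 0 of the 91 above the minimum were called in ADV against LD, and 14 had an unadjusted p under 0.05 by limma, where 11.8% of all genes did. By list, those with the smallest unadjusted p were Nfe2l1, a relative of NRF2 (log2 fold change −0.27), Ggct of glutathione turnover (0.63), the transferase Gstt2 (−0.82), the peroxiredoxin Prdx6 (−0.33), G6pdx, which supplies NADPH (0.89), Htatip2 of the detoxification list (0.72), the iron exporter Slc40a1 (0.47) and the mitochondrial superoxide dismutase Sod2 (−0.26). None of these reached an adjusted p under 0.05, and the smallest was 0.234 for Gstt2. Ggct measured between 1.81 and 2.53 FPKM under LD and between 2.98 and 4.16 FPKM under ADV. Gstt2 measured between 35.9 and 50.4 FPKM against between 21.7 and 32.6 FPKM. The groups did not overlap in either gene, and both had been picked by their p. Of the 91, 7 lay above every LD liver and 3 below, where 6.94% of all genes lay above and 1.89% below.

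In kidney 0 of 91 were called with all mice, and 4 had an unadjusted p under 0.05 by limma, where 3.10% of all genes did. By list, the smallest unadjusted p fell to Cul3 (log2 fold change −0.21), Chac1, which degrades glutathione (0.60), the transferase Gstm6 (0.84), the thioredoxin inhibitor Txnip (−0.58), the malic enzyme Me1 (−0.34), the carboxylesterase Ces1g (−2.61), the ferrochelatase Fech (−0.33) and catalase, Cat (−0.29). Ces1g measured 9.86, 24.7, 29.7 and 20.3 FPKM in the LD kidneys and 5.90, 12.6, 0.669 and 1.75 FPKM in the ADV kidneys, and A91 lay above the lowest LD kidney. Without A115, 19 were called higher and 1 lower, where 16.1% of all genes were called higher and 2.68% lower and the median of all genes lay at 0.20. With the scaling as well 6 were higher and 4 lower, where 8.31% of all genes were called higher and 7.70% lower. The NADPH supply list had 4 of 7 called higher without A115, namely Pgls, Tkt, Pgd and Taldo1, and the first 3 of them with the scaling. Pgls, which hydrolyses 6-phosphogluconolactone in the pentose phosphate pathway, measured 16.9, 20.6, 27.9 and 28.8 FPKM in the LD kidneys, 63.2, 48.5 and 57.6 FPKM in A75, A91 and A94, and 1.55 FPKM in A115. Its log2 fold change was 0.008 (SE 1.11) with all mice and 1.28 without A115 (SE 0.19, adjusted p = 0.0111 by limma). The transketolase Tkt measured between 42.3 and 56.3 FPKM in the LD kidneys, between 62.5 and 74.8 in A75, A91 and A94, and 13.3 in A115.

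In the list of NRF2 regulation 4 of 11 were called higher and 1 lower without A115, beside 16.1% and 2.68% of all genes. Cul3, the scaffold of the ligase that KEAP1 recruits, was the lower one, with 45.7, 41.8, 41.7 and 39.2 FPKM in the LD kidneys, 25.3, 33.4 and 30.3 FPKM in A75, A91 and A94, and 67.6 FPKM in A115. Dpp3, which binds KEAP1, measured between 9.77 and 10.4 FPKM in the LD kidneys, between 13.6 and 16.2 in A75, A91 and A94, and 2.33 in A115. Its log2 fold change was −0.11 (SE 0.58) with all mice and turned to 0.54 without A115 (adjusted p = 0.0130 by limma). Nfe2l1, Sqstm1 and Mafk were the others that were higher. With the scaling as well, Cul3 was lower and Nfe2l1 and Dpp3 were higher.

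Without A115, where 16.1% of all genes were called higher, 2 of 11 were called higher for glutathione synthesis and use (Oplah and Slc3a2), 4 of 19 for the glutathione S-transferases (Gstm4, Gstm7, Gstm2 and Mgst3), 3 of 11 for thioredoxin and peroxiredoxin (Txnrd2, Prdx5 and Txn1), 2 of 8 for heme and iron (Slc48a1 and Ftl1), and 0 of 20 and 0 of 4 in the lists of detoxification and export and of superoxide and peroxide removal. With the scaling as well, of these genes only Slc48a1, a heme transporter, was called, and Aldh1a1, Fech and Cat were called lower. Cat measured between 410 and 438 FPKM in the LD kidneys and 335, 396, 314 and 355 FPKM in the ADV kidneys, so that every ADV kidney, A115 included, lay below every LD kidney. With all mice 2 of the 91 pathway genes lay below and 2 above, where 1.83% of all genes lay below and 0.962% above. Gstm transcripts are close in sequence, and reads of low mapping quality, which with STAR include those that map to several places, had been removed, so that the values of single Gstm genes are uncertain.

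**Figure D5:**
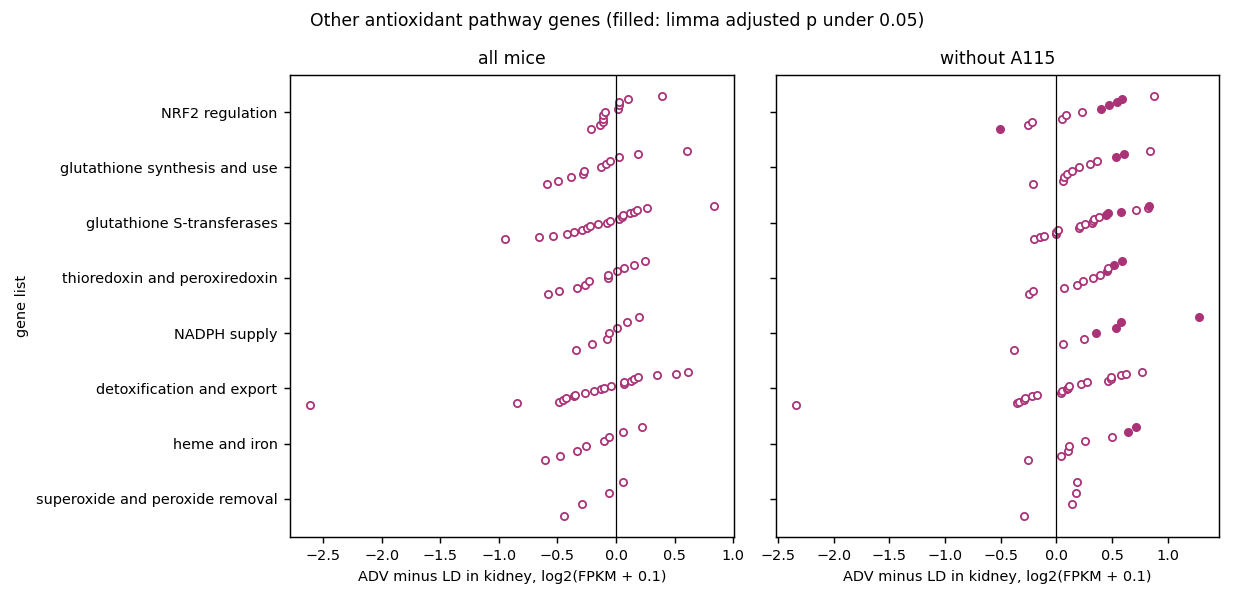
Log2 fold change, ADV minus LD in kidney, of the other pathway genes by list, with all mice on the left and without A115 on the right; each point is 1 gene, lists are in rows, and filled points have an adjusted p under 0.05 by limma. No point is filled on the left, and on the right 19 filled points lie to the right of 0 and 1 to the left.

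Likeness across the 8 libraries of an organ is given as a description, since these points share their conditions and, in kidney, the library of A115. In kidney the members paired as Keap1 with Hmox1 (Pearson r = 0.943), Nqo1 with Osgin1 (0.943) and Gclc with Gclm (0.867), and Gclc and Keap1 went apart (−0.847). In liver the closest pairs were Gclm with Txnrd1 (0.910) and Hmox1 with Txnrd1 (0.909). Among all genes with a mean above 1 FPKM, those most like Nfe2l2 were Prrg4, Psme3 and Phf10 in kidney (0.968, 0.958 and 0.952) and Psmd4, Cep63 and 2610002M06Rik in liver (0.972, 0.967 and 0.964). Those most like Nqo1 were Apom, Kctd2 and AK077428 in kidney (0.997, 0.994 and 0.993) and Fam162a, Fbxo4 and Tbca in liver (0.961, 0.956 and 0.947).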

How the data were processed

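Poly(A)-enriched stranded RNA of liver and kidney was sequenced from 8 mice. The authors trimmed the reads, mapped them to mm10 with STAR 2.5.4b, removed alignments of low mapping quality with SAMtools and quantified exons of UCSC genes with HOMER. The deposited values are FPKM (columns named RPKM), each library divided by its own total, and 100% of them returned multiples of 0.5 fragment within 0.05 of a step. The differential test stated in the methods, on counts, was not run. Genes with a mean above 0.5 fragments per 1000000 were tested with limma 3.58.1 in R 4.3.3 (lmFit, eBayes with trend) on log2(FPKM + 0.1), which understates changes of low genes, with Benjamini-Hochberg adjustment over all genes. Called means an adjusted p under 0.05. Single members were compared with two-sided exact permutation tests (70 assignments for 4 against 4). The members and lists were chosen with earlier results of these data known. All 10 members were named, and of each list the gene with the smallest p in each organ and the called genes, up to 4 in a list; Cul3, the fifth called gene of its list, was named as its 1 lower gene. Liver and kidney came from the same animal and were paired in the permutation tests between organs and in an alternative fit with the mouse as a block. The main limma fits between organs did not pair them. Deviations of the pairs correlated between −0.0242 and 0.553, above 0.1 in 5 of 8. Alternatives were other pseudocounts, filters, scalings, limma-voom on recovered fragments, leaving out mice and a replicate block. On simulated data with 200 genes shifted by 1.5 (log2), 169 were found in liver among 12835 genes and 97 in kidney among 14452. Of the unshifted genes 13 and 8 were called as well. This shift is larger than the changes of the members between ADV and LD, so that it does not show how many such changes would be found.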

Additional observations from a re-analysis of the deposited data

Results flagged for a closer look

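Within the groups of 4, 40 sets of values were searched for a library far from the others, of which chance gives about 1 in 20, and 3 were found. Osgin1 in the kidney of A115 was at 2.56 FPKM against between 31.6 and 35.1 in the other ADV kidneys, a gap of 0.894 of the range of the group. Slc7a11 in the kidney of A94 was at 0.300 FPKM against at most 0.0307, a gap of 0.915 of the range. Nqo1 in the kidney of L86 was at 40.8 FPKM against between 35.5 and 36.1 in the other LD kidneys, a gap of 0.891 of the range.

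Gclm was singled out because its difference between ADV and LD was called different between the organs once A115 was left out, and not with all mice. Every ADV library lay above the LD mean in liver and below it in kidney, and the difference of the log2 fold changes was 0.578 with all mice (adjusted p = 1.0 by limma) and 0.690 without A115 (adjusted p = 0.0275 by limma).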

How the results depend on the processing

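In liver 0 members and 0 pathway genes were called under every alternative, and among all genes the count of 1 became 6 with no filter, 0 with quantile normalization, 2 without A94 and A115, and between 0 and 9 when 1 mouse was left out, with A91 giving the 9. In kidney the count of members was 4 without A115 with median-ratio scaling, 3 without A94 and A115, and between 0 and 3 when 1 mouse was left out, with A115 giving the 3. Pathway genes numbered 10, 5 and between 0 and 20, and all genes 2318, 672 and between 0 and 2724 (2 with both organs in 1 fit). For the difference between organs the same fits gave 2, 2 and between 0 and 1 members, 3, 6 and between 0 and 5 pathway genes, and 417, 718 and between 0 and 411 genes. All genes gave 3 with no filter and 1 each with quantile normalization and median-ratio scaling. Without A94 and A115, liver against kidney gave 7 of 9 members in ADV, where 11842 of 14819 genes were called, and 9 of 9 in LD, where 12382 were. In LD it gave 5 members with median-ratio scaling (8217 of 14968 genes), and leaving out 1 mouse gave between 5 members (without L63, 8787 of 15008 genes) and 8 (without A115, 11934 of 14975). With the mouse as a replicate block, 7 members were called in LD (10124 of 14968 genes), 4 in ADV (9602 genes) and 0 for the difference between organs (0 genes), the same counts of members as without it.

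Some signs turned, given here as log2 differences. With median-ratio scaling they did so for Keap1 (−0.06) and Gclc (−0.0233) in liver, and in liver against kidney Gclc in LD (0.0307) and Gclc (0.523), Hmox1 (0.339) and Txnrd1 (0.462) in ADV. With A115 also left out, they turned for Keap1 (−0.0513) and Gclc (−0.0126) in liver, Hmox1 in kidney (0.149), Gclc in LD (0.0236) and Gclc (0.966), Gclm (0.240), Hmox1 (0.101) and Txnrd1 (0.423) in ADV between organs, and the organ difference of Osgin1 (−0.293). Quantile normalization turned those of Keap1 in liver (−0.0321), Slc7a11 between organs (0.380 in LD, 0.352 in ADV), Txnrd1 (0.0711) and Hmox1 (0.0564) in ADV, and the organ difference of Slc7a11 (−0.0282), which was −0.0454 and −0.0307 at pseudocounts of 0.5 and 1. Without mitochondrial genes in the totals, Keap1 between organs in ADV was −0.00933. Without A94 and A115, signs turned for Keap1 in liver (−0.168), Nqo1 (0.0472), Hmox1 (0.364) and Osgin1 (0.0976) in kidney, Gclc (0.112), Keap1 (−0.548) and Osgin1 (−0.0675) between organs in ADV, and the organ differences of Hmox1 (−0.172), Srxn1 (−0.176) and Osgin1 (−0.652). The causes were not tested. Leaving out 1 mouse gave ranges of −0.111 to 0.108 for Keap1, −0.0553 to 0.202 for Gclc (liver), and −0.278 to 0.0037 for Nfe2l2, −0.725 to 0.111 for Nqo1, −0.31 to 0.339 for Hmox1, −1.18 to 0.0571 for Osgin1 (kidney), and −0.162 to 0.0353 for Slc7a11, −0.718 to 0.102 for Keap1, −0.376 to 1.01 for Osgin1 (organ difference), and −0.38 to 0.44 for Keap1, −0.369 to 0.0764 for Gclc (between organs in ADV).

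Groups held 4 mice, or fewer where mice were left out, and Slc7a11 had the fewest fragments of the members. How far mice and fragments limited the precision was not tested. Tests without A115 compare 3 mice with 4.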
